A study of Homo sapiens with 8 samples.

Results

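The genes described here are 32 genes of cholesterol and fatty acid synthesis, measured in 5 human cancer cell lines on 8 Agilent 2-colour arrays. They were taken by symbol from the gene name column of the scanner output, leaving out control spots, and all 32 were found among the 43317 gene names of the array. They fall into 8 genes of the mevalonate steps, 10 genes of the steps from squalene to cholesterol, 6 genes of the SREBP regulators and sterol transport, and 8 genes of fatty acid synthesis. The mevalonate and squalene genes together make up the sterol branch, with 18 genes.

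On every array, RNA of untransfected cells (mock) carried the dye Cy3 and RNA of the same cell line after transfection with Lipofectamine RNAiMAX carried Cy5, so that dye and transfection cannot be told apart. PC3 prostate cancer cells received si-PIR-2 on 1 array and si-PIR-3 on another, which are different siRNAs against PIR (pirin) and were treated as 2 samples of the group si-PIR. SK-MES-1 lung squamous carcinoma cells received miR-144-5p or miR-144-3p, and PANC1 pancreatic cancer cells received miR-130-5p or miR-130-3p, with 1 array each. The RNA miR-204-5p had 1 array in SW1990 pancreatic cancer cells and 1 in MDA-MB-231 breast cancer cells. No array held cells that received a control RNA, and the labels do not say whether samples came from separate cultures, so p-values measure only the spread between these arrays.

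Cells build cholesterol from acetyl-CoA through mevalonate, farnesyl diphosphate, squalene and lanosterol, and build long fatty acids from acetyl-CoA through malonyl-CoA. Both routes are driven by the sterol regulatory element binding proteins (SREBPs), membrane-bound transcription factors that SCAP escorts from the endoplasmic reticulum to the Golgi when membrane sterol is low, and that INSIG proteins hold back when it is high. Cancer cells often keep these routes active to supply membranes for growth.

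The targeted gene checked the labels of the si-PIR arrays, with a log2 ratio of PIR (transfected over mock) of -5.46 with si-PIR-2 and -4.27 with si-PIR-3. On the other arrays it lay between -0.24 and 0.05, apart from -1.59 with miR-130-5p. Per array, 24090 to 26989 of 58201 probes passed the scanner's mark for signal well above background in Cy3 and 28957 to 31791 in Cy5. Among markers of the cell types, HOXB13 was by far the brightest in PC3 mock RNA, but KLK3, KLK2 and FOLH1 were not well above background there. In SK-MES-1, whose label is squamous, KRT5, KRT6A and DSG3 were not well above background, while KRT14, TP63 and SFN of the 6 squamous markers were. SFN was also well above background in the other lines and KRT14 in SW1990, where 4 of the 6 squamous markers were. TP63 was well above background in SK-MES-1 alone. The pancreatic ductal markers did not set the pancreatic lines apart, with 6 of 6 well above background in SW1990, 5 of 6 in PANC1 and 6 of 6 in PC3. Each of the 32 genes had a probe with Cy3 or Cy5 signal well above background on all 8 arrays, and 31 of them had both. The exception was SC5D, whose mock signal was not well above background in SW1990.

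The transfected miRNAs are shown here to identify the treatments, as RefSeq gives the human mature sequences (GRCh38.p14), with the seed, bases 2 to 8, in capitals. They share no seed. The labels do not name the family member of miR-130, and its sequence is not printed.
hsa-miR-144-5p: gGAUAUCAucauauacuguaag
hsa-miR-144-3p: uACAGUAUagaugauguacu
hsa-miR-204-5p: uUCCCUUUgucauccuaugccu

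Promoter windows were read because many of the 32 genes are known targets of SREBPs, which often bind next to the factor NF-Y. RefSeq promoter windows of 300 bases (250 before and 50 after the start, GRCh38.p14) were matched for 28 of the 32 genes. The CCAAT box, the core of an NF-Y site, was searched on both strands and lay in 18 of 28 windows (64.3%), against 35.7% of 27305 promoters of the same length. The sterol regulatory element core TCACNCCAC lay in 1 of 28 windows, that of SREBF2, against 1.15% of all promoters. These matches are descriptions of the letters in the windows. Matches of genes that the ratios turn on are printed next, with the motif (or, on the other strand, ATTGG) in capitals, from chr7:155297698-155297722 (plus strand) for INSIG1, chr5:43313498-43313522 (minus strand) for HMGCS1, chr5:111512682-111512706 (minus strand) for STARD4, chr10:100346994-100347018 (plus strand) for SCD and chr22:41832962-41832990 (plus strand) for SREBF2.
INSIG1: ccggcctcccATTGGttgcggccgc
HMGCS1: accggccgcgATTGGctgtgggagc
STARD4: ttatcggccaCCAATcagccctcca
SCD: ttgcgccgagCCAATggcaacggca
SREBF2: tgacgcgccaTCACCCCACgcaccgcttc

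With si-PIR-3, the 18 genes with a CCAAT box had a median log2 ratio of 0.50 and the 10 without it one of 0.22, and with miR-130-3p these medians were 0.73 and 0.34. With si-PIR-2 they were -0.13 and -0.25, with miR-204-5p in MDA-MB-231 0.16 and 0.08, and with miR-130-5p 0.06 and -0.07. The order was the other way round with miR-144-5p (-0.25 and -0.18), miR-144-3p (-0.16 and -0.15) and miR-204-5p in SW1990 (0.02 and 0.06). The ranges of the genes with and without the box overlapped on every array. Of the genes without it, only PMVK, IDI1 and CYP51A1 belong to the sterol branch, so that box and branch cannot be told apart. All genes were not split by the box, so these medians have no background.

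Most of the 32 genes had more RNA in transfected than in mock cells on the si-PIR-3 and miR-130-3p arrays, and less on the si-PIR-2, miR-144-5p and miR-144-3p arrays. With miR-130-3p the median log2 ratio of the 32 genes was 0.70 against 0.03 over all genes measured, and 27 of 32 lay above 0. With si-PIR-3 it was 0.36 against 0.05, also with 27 of 32 above 0. The other siRNA against the same gene gave the opposite picture, since with si-PIR-2 the median was -0.15 against 0.05 and 7 of 32 lay above 0. With miR-144-5p it was -0.21 against 0.04 and with miR-144-3p -0.16 against 0.02, again with 7 of 32 above 0 on each.

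The median was 0.06 with miR-204-5p in SW1990 (24 of 32 above 0), 0.16 with miR-204-5p in MDA-MB-231 (22 of 32) and -0.01 with miR-130-5p (15 of 32). Over all genes measured, between 53.2% and 56.2% lay above 0 on any array.

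Counts of genes past a log2 ratio of 1 in size (2-fold), which have no replicate check, were read against the share of all genes measured on that array. With miR-130-3p, 7 of 32 genes lay above 1 (6.4% of all genes) and 0 below -1 (1.93%). With si-PIR-3, 4 lay above 1 (3.92%) and 1 below -1 (2.28%). With si-PIR-2, 0 lay above 1 (5.82%) and 2 below -1 (2.87%). With miR-130-5p, 2 lay above 1 (7.55%) and 1 below -1 (6.19%). With miR-204-5p in MDA-MB-231 there was 1 in each direction (3.36% and 1.88%), and in SW1990 there were 0 (4.56% and 1.93%). The miR-144-5p array (4.17% and 1.96%) and the miR-144-3p array (4.51% and 1.11%) had 0 in either direction. Against these shares, the 7 genes with miR-130-3p are the count that lies farthest above the background of its array. With normexp and loess in place of the scanner's ratios, the counts in both directions together were 3 for si-PIR-3 and 0 for miR-204-5p in MDA-MB-231, against 5 and 2.

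**Figure D1:**
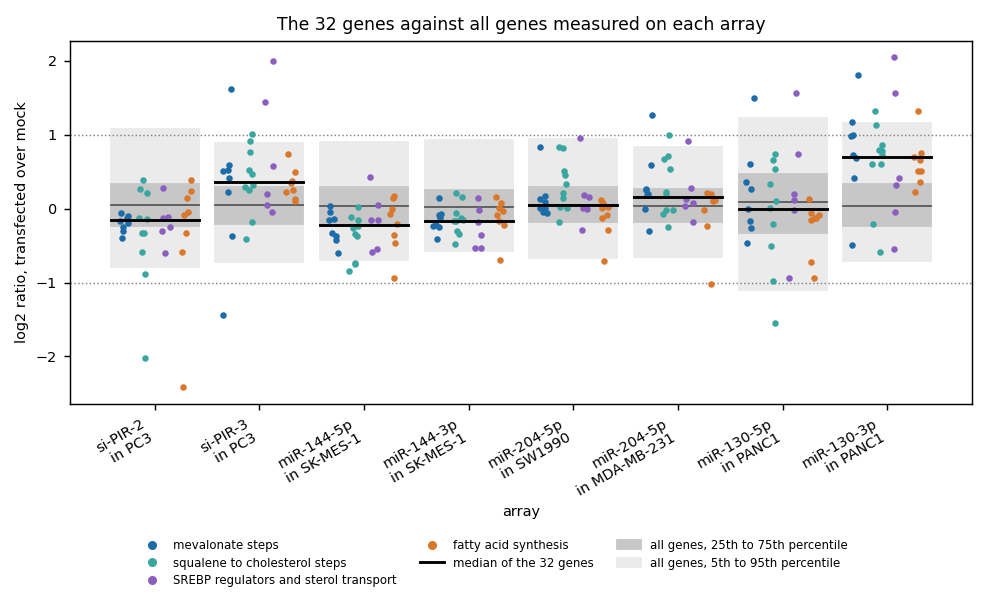
Log2 ratio of transfected over mock RNA (vertical axis) on each of the 8 arrays, 1 point a gene, coloured by role, with the median of the 32 genes as a black bar and the spread of all genes measured on that array in grey. The bar lies at 0.70 with miR-130-3p and 0.36 with si-PIR-3, above the grey median line, and at -0.15 with si-PIR-2, below it.

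Over the 8 arrays together, INSIG1 was higher in transfected than in mock RNA, by a mean log2 ratio of 0.98 (SE 0.21, limma with cell line as a random block, adjusted p = 0.0483). It was the single gene of the 32 to pass, while of 18660 genes tested 251 were higher (1.35%) and 117 lower (0.627%). Each of the 8 arrays lay above 0 for INSIG1, and for no other of the 32 genes. That share (3.1%) was not above the 4.79% of all genes measured on all arrays. These signs come from the same values as the mean and are not separate evidence. Without an adjustment, 7 of 32 genes and 3828 of all genes had a p below 0.05. HMGCS1 had a mean of 0.89 (SE 0.24, adjusted p = 0.0791, above 0 on 7 of 8 arrays), DHCR7 one of 0.42 (SE 0.15, adjusted p = 0.164, 6 of 8) and ACLY one of 0.20 (SE 0.089, adjusted p = 0.226, 7 of 8). SREBF1 had a mean of -0.41 (SE 0.10, adjusted p = 0.0697) and PMVK one of -0.24 (SE 0.079, adjusted p = 0.136), and both lay below 0 on 8 of 8 arrays, as 3.08% of all genes did, SREBF1 on its brighter probe alone, since its other probe lay above 0 on 7 of 8. TM7SF2 had a mean of -0.48 (SE 0.14, adjusted p = 0.105, below 0 on 7 of 8). The call of INSIG1 lay close to the threshold: limma's adjusted p was 0.055 with each array centred on its median, 0.14 without the filter on dim probes and 0.178 without the miR-130-3p array, and leaving out any 1 of 6 of the 8 arrays ended it (si-PIR-3, miR-144-5p, either miR-204-5p array and either miR-130 array). Its mean stayed between 0.83 and 1.104 and its adjusted p between 0.0371 and 0.178 over the alternatives run.

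**Figure D2:**
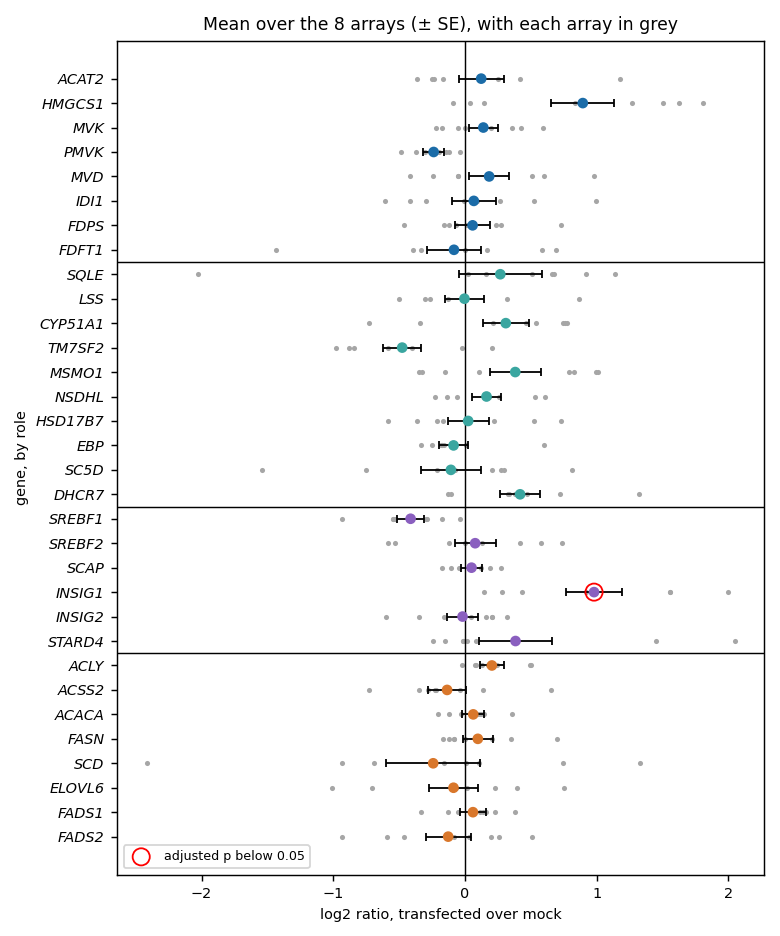
Mean log2 ratio of transfected over mock RNA over the 8 arrays for each gene (coloured points, bars are ± 1 SE of the limma fit), with the 8 arrays as grey points and a red ring where the adjusted p was below 0.05. INSIG1 alone carries a ring, with all 8 grey points above 0, and PMVK has all 8 below 0, as has SREBF1 on the brighter probe plotted here (its other probe lay above 0 on 7 of 8).

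Values on every array are given next by role, always in the order si-PIR-2, si-PIR-3, miR-144-5p, miR-144-3p, miR-204-5p in SW1990, miR-204-5p in MDA-MB-231, miR-130-5p and miR-130-3p, as the log2 ratio of transfected over mock RNA.

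Among the mevalonate genes, HMGCS1, which makes HMG-CoA from acetyl-CoA and acetoacetyl-CoA, had ratios of -0.09, 1.62, 0.04, 0.14, 0.83, 1.26, 1.504 and 1.805. Its probe lies at chr5:43290117-43290176 (hg19, minus strand). It was above 1 on 4 arrays in 3 cell lines (si-PIR-3, miR-204-5p in MDA-MB-231 and both miR-130 strands), and within 0.15 of 0 on the other PC3 array and both SK-MES-1 arrays. ACAT2, the cytosolic thiolase that joins 2 acetyl-CoA units, had ratios of -0.25, 0.42, -0.36, -0.23, 0.13, 0.25, -0.17 and 1.18, so that the miR-130-3p array alone was past 1. FDFT1, squalene synthase, which commits farnesyl diphosphate to sterols, had ratios of -0.39, -1.43, -0.33, -0.09, 0.17, 0.59, -0.0016 and 0.69. It was lowest with si-PIR-3, on the array where most genes of the pathway lay above 0. PMVK, phosphomevalonate kinase, had ratios of -0.19, -0.37, -0.14, -0.12, -0.04, -0.30, -0.26 and -0.49, a narrow range below 0. The other 4 genes of these steps did not pass 1 in size on any array. MVK, mevalonate kinase, ran from -0.22 to 0.59, MVD, the decarboxylase that makes isopentenyl diphosphate, from -0.42 to 0.98, IDI1, which isomerises it, from -0.61 to 0.997, and FDPS, farnesyl diphosphate synthase, from -0.47 to 0.73. The highest of the 8 arrays was miR-130-3p for MVD, IDI1 and FDPS, and si-PIR-3 for MVK.

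Among the genes from squalene to cholesterol, SQLE, the epoxidase that opens this stretch and a known rate-limiting enzyme, had ratios of -2.02, 0.92, 0.02, 0.16, 0.51, 0.67, 0.66 and 1.14. It was 4.07-fold lower than mock with si-PIR-2 and above 0 on the other 7 arrays. MSMO1, a methylsterol oxidase, had ratios of -0.33, 1.01, -0.35, -0.16, 0.83, 0.99, 0.11 and 0.79, with its highest values for si-PIR-3 and both miR-204-5p arrays. With normexp background correction and loess its si-PIR-3 value was 0.55. DHCR7, which makes cholesterol from dehydrocholesterol, had ratios of 0.38, 0.47, -0.11, -0.13, 0.34, 0.72, 0.33 and 1.32, with both SK-MES-1 arrays below 0 and the other 6 above. CYP51A1, the lanosterol demethylase, had ratios of 0.22, 0.76, -0.73, -0.34, 0.46, 0.54, 0.75 and 0.78 and split in the same way. TM7SF2, a sterol reductase, had ratios of -0.88, -0.40, -0.84, -0.48, 0.21, -0.02, -0.98 and -0.59, below -0.8 in 3 cell lines and past 0 in SW1990 alone. With normexp and loess these 3 values were -0.59 (si-PIR-2), -0.23 (miR-144-5p) and -0.63 (miR-130-5p). SC5D, the sterol desaturase before DHCR7, had ratios of 0.27, 0.30, -0.75, 0.21, 0.82, -0.08, -1.54 and -0.21. It was the dimmest of these genes, and its miR-130-5p value was -0.23 with normexp and loess.

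LSS, lanosterol synthase, ran from -0.50 to 0.86 on its brighter probe, but a dimmer probe gave 0.56, 0.69, -0.22, -0.14, -0.02, 0.44, 1.52 and 1.74, past 1 with both miR-130 strands. HSD17B7, a sterol ketone reductase, ran from -0.59 to 0.73 on its brightest probe. A near-identical pseudogene exists, and whether it adds to the signal was not tested. One of its 3 other probes gave -0.84, -1.02, -0.43, -0.26, -1.17, -0.16, -0.21 and 0.17, past -1 with si-PIR-3 and miR-204-5p in SW1990. That probe was well above background in Cy3 on only 6 of 8 arrays. The remaining probes, well above background on all 8, gave 0.37 and 0.41 with si-PIR-3 and 0.07 and 0.26 with miR-204-5p in SW1990. NSDHL, a sterol dehydrogenase, ran from -0.23 to 0.60, and EBP, a sterol isomerase, from -0.34 to 0.60. For LSS, HSD17B7, NSDHL and EBP the highest of the 8 arrays was miR-130-3p on the probe that stood for the gene.

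Among the regulators, INSIG1, itself a classical SREBP target, had ratios of 0.28, 1.995, 0.43, 0.14, 0.96, 0.92, 1.56 and 1.56, from its probe at chr7:155101843-155101902 (hg19, plus strand). The si-PIR-3 and miR-130 arrays gave the 3 highest values, both miR-204-5p arrays lay near 0.9, and si-PIR-2 and both SK-MES-1 arrays lay below 0.5. STARD4, which carries cholesterol between membranes, had ratios of -0.25, 1.45, -0.15, -0.01, 0.02, 0.08, -0.02 and 2.05, high on 2 arrays and within 0.25 of 0 on the other 6. With normexp and loess these 2 values were 0.85 (si-PIR-3) and 0.76 (miR-130-3p), so that neither passed 1. SREBF1, which encodes the SREBP that favours fatty acid genes, had ratios of -0.30, -0.04, -0.55, -0.53, -0.28, -0.17, -0.93 and -0.54 on its brighter probe, but its other probe gave -0.05, 0.39, 0.09, 0.49, 0.02, 0.32, 0.06 and 0.26. The probes disagreed in sign on 7 of 8 arrays, and no direction is given for SREBF1. SREBF2, which encodes the SREBP that favours sterol genes, had ratios of -0.12, 0.57, -0.58, -0.53, 0.0006, 0.13, 0.74 and 0.42, with both SK-MES-1 arrays lowest and miR-130-5p highest. SCAP, the escort of SREBPs, kept within 0.28 of 0 on every array. INSIG2, the other INSIG protein, ran from -0.60 to 0.32 on its brighter probe, and its other probe gave -1.61 with si-PIR-2.

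Among the fatty acid genes, SCD, which puts the double bond into stearate, had ratios of -2.42, 0.75, -0.93, -0.69, 0.0057, 0.10, -0.16 and 1.33. It was 5.34-fold lower than mock with si-PIR-2, below -0.5 on both SK-MES-1 arrays and above 0.5 with si-PIR-3 and miR-130-3p. Its mock signal repeated poorly, by 0.61 on the log2 scale between both PC3 arrays and 0.95 between both PANC1 arrays, and against the mean mock of the cell line its ratios were -2.12 with si-PIR-2, 0.44 with si-PIR-3, 0.32 with miR-130-5p (above 0, where its own mock gave -0.16) and 0.85 with miR-130-3p. ELOVL6, the elongase of palmitate, had ratios of 0.39, 0.23, -0.07, 0.01, -0.70, -1.01, -0.09 and 0.75, with both miR-204-5p arrays lowest. Its other, dimmer probe gave 0.75 and 0.01 on the miR-204-5p arrays. The other 6 genes stayed between -1 and 1. They are ACLY (0.50 at most), which makes cytosolic acetyl-CoA from citrate, ACSS2 (-0.73 to 0.65), which makes it from acetate, ACACA (-0.20 to 0.36), which makes malonyl-CoA, FASN (-0.17 to 0.70), the fatty acid synthase, and the desaturases of polyunsaturated fatty acids FADS1 (-0.33 to 0.38) and FADS2 (-0.94 to 0.51). The range of ACACA is that of its brighter probe, and its other probe ran from -0.30 to 0.65.

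**Figure D3:**
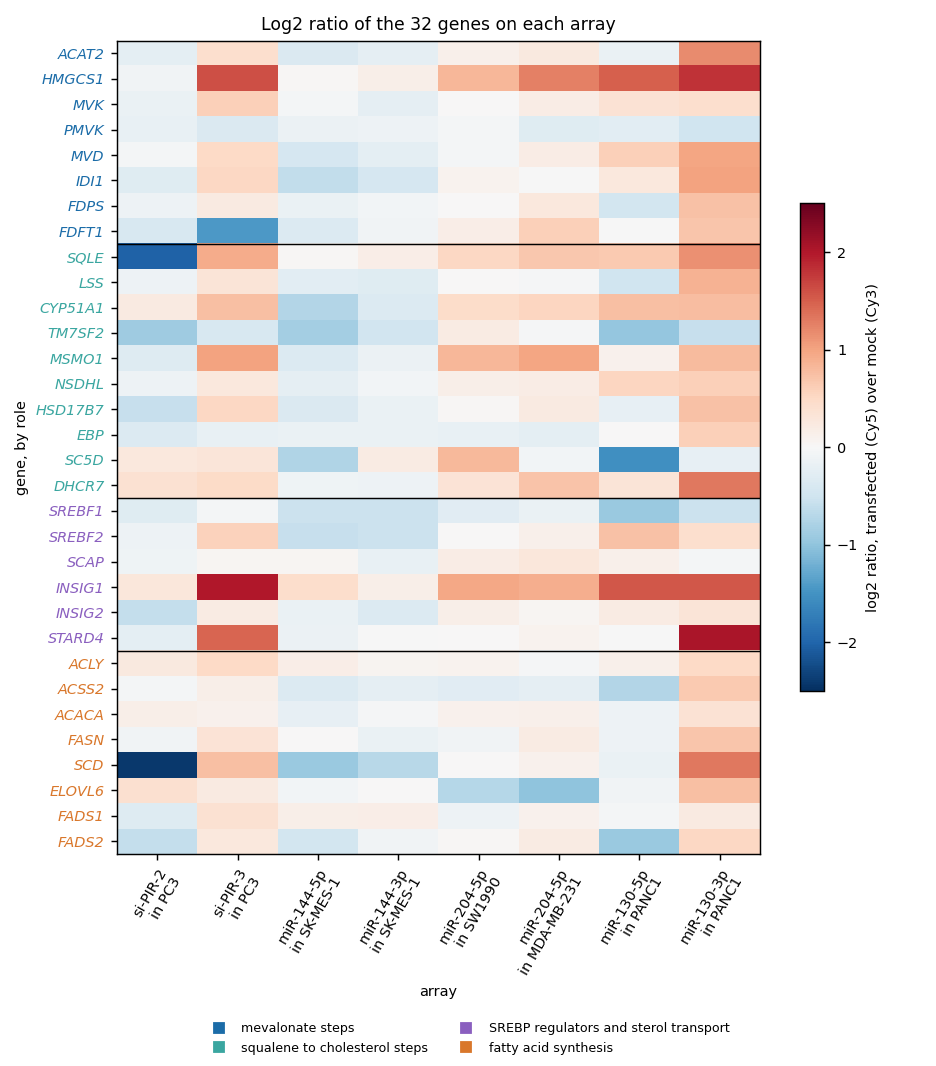
Log2 ratio of transfected over mock RNA for each of the 32 genes (rows, coloured and grouped by role) on each of the 8 arrays (columns), with red above 0 and blue below. The miR-130-3p and si-PIR-3 columns are mostly red, the INSIG1 row is red throughout (0.14 to 1.995), and the darkest blue cells are SCD (-2.42) and SQLE (-2.02) with si-PIR-2.

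In PC3 cells, the 2 siRNAs against PIR were compared gene by gene to ask whether RNAs aimed at the same gene gave the same values for the pathway. Both arrays had PC3 mock RNA as control, and the labels do not say whether it was the same RNA. With 1 array a siRNA the difference has no replicate check. The log2 ratio was higher with si-PIR-3 than with si-PIR-2 for 28 of 32 genes, by a median of 0.51, against 0.01 over 22459 genes measured on both. Of those 22459 genes, 51.0% were higher with si-PIR-3. The difference exceeded 1 for 7 of 32 genes (4.91% of all genes) and lay below -1 for 1 (5.12%). On the probes that stood for the genes, all 10 genes from squalene to cholesterol and all 6 regulators were higher with si-PIR-3. So were 6 of 8 mevalonate genes and 6 of 8 fatty acid genes. SC5D differed by 0.02, and by -0.04 against the mean mock of PC3. The differences past 1 were those of SCD (3.16), SQLE (2.95), HMGCS1 (1.72), INSIG1 (1.71), STARD4 (1.69), MSMO1 (1.34) and HSD17B7 (1.11). Against the mean mock of PC3, that of SCD was 2.56 and that of MSMO1 1.02. INSIG2 differed by 0.81 on the probe that stood for it, but by more than 1 on its other probe (-1.61 with si-PIR-2 and -0.39 with si-PIR-3). The 3 other probes of HSD17B7 did not pass 1, with si-PIR-2 and si-PIR-3 at -0.46 and 0.37, at -0.38 and 0.41, and at -0.84 and -1.02. FDFT1 went the other way (-1.04), and PMVK, ACACA and ELOVL6 were also lower with si-PIR-3 than with si-PIR-2, by less than 0.2.

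As a group of 2 arrays, si-PIR gave no call among the 32 genes (0% of all genes called higher and 0% lower). In limma's fit 0 of 22459 genes passed an adjusted p of 0.05, PIR included (mean -4.86, SE 0.31, adjusted p = 0.199), while 4 of 32 genes and 3273 of all genes had an unadjusted p below 0.05. The 4 genes were TM7SF2 (mean -0.64, SE 0.18, adjusted p = 0.293), FDFT1 (mean -0.91, SE 0.30, adjusted p = 0.318), DHCR7 (mean 0.43, SE 0.16, adjusted p = 0.34) and CYP51A1 (mean 0.49, SE 0.18, adjusted p = 0.343). The mean of INSIG1 was 1.14 (SE 0.43, adjusted p = 0.347), from arrays at 0.28 and 1.995. The SE of a gene in this fit pools the spread of the si-PIR arrays with that of the miR-204-5p arrays.

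**Figure D4:**
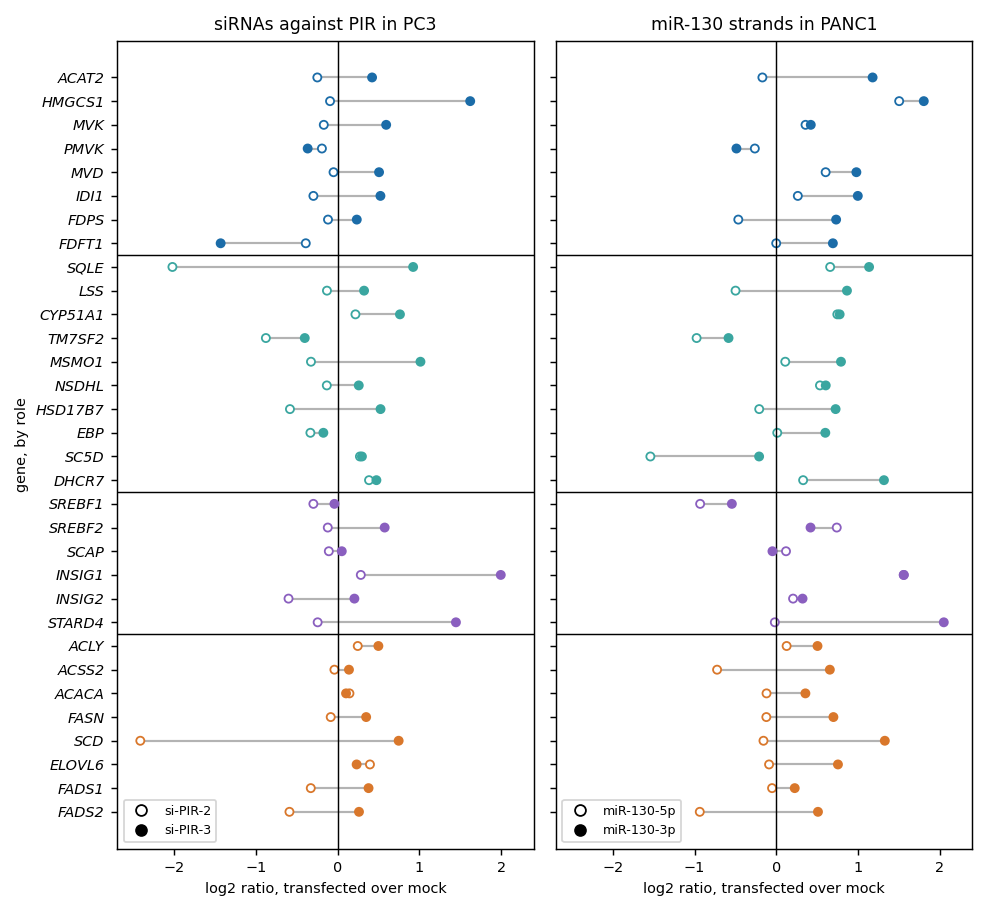
Log2 ratio of transfected over mock RNA for each of the 32 genes on the arrays of 2 RNAs in the same cell line, joined by a grey line, with open points for si-PIR-2 (left) or miR-130-5p (right) and filled points for si-PIR-3 or miR-130-3p. The filled point lies to the right for 28 of 32 genes on the left and for 29 of 32 on the right, and the widest gaps on the left are SCD and SQLE.

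In PANC1 cells, the comparison of the strands of miR-130 has the same limits. The log2 ratio was higher with miR-130-3p than with miR-130-5p for 29 of 32 genes, by a median of 0.53, against -0.06 over 21574 genes measured on both. Of those 21574 genes, 46.2% were higher with miR-130-3p. The difference exceeded 1 for 8 of 32 genes (8.7% of all genes) and lay below -1 for 0 (6.95%). On the probes that stood for the genes, all 8 fatty acid genes were higher with miR-130-3p, by a median of 0.83. So were all 10 genes from squalene to cholesterol, by a median of 0.64. The other probe of ACACA went the other way, with 0.65 for miR-130-5p and 0.03 for miR-130-3p. That of ELOVL6 gave 0 with each, but it was near background, well above it on only 4 of 8 arrays in Cy3. Its 0 is therefore not read as a lack of change. NSDHL differed by 0.07, and by -0.04 against the mean mock of PANC1. The differences past 1 were those of STARD4 (2.07), SCD (1.49), FADS2 (1.45), ACSS2 (1.38), LSS (1.36), ACAT2 (1.35), SC5D (1.33) and FDPS (1.197). Against the mean mock of PANC1 the difference of SCD was 0.53, and the other probe of LSS gave 1.52 with miR-130-5p and 1.74 with miR-130-3p. INSIG1 differed by less than 0.01 between the strands, at 1.56 with each. PMVK, SREBF2 and SCAP were lower with miR-130-3p than with miR-130-5p.

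In SK-MES-1 cells, the strands of miR-144 differed less. The median difference, miR-144-3p minus miR-144-5p, was 0.12 over the 32 genes and -0.01 over 23152 genes, and 0 of 32 passed 1 in either direction (2.17% above and 2.09% below). On these arrays the lowest of the 32 genes was SCD (-0.93 with miR-144-5p and -0.69 with miR-144-3p) and the highest was INSIG1 (0.43) with miR-144-5p and SC5D (0.21) with miR-144-3p.

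For miR-204-5p, the 2 arrays come from different cell lines with their own mock RNA. Of the 32 genes, 24 had the same sign in both lines (75%, against 68.4% of 20489 genes), 19 above 0 and 5 below. Limma called 0 of 32 genes, with 0% of all genes called higher and 0% lower, while 4 of 32 and 3051 of all genes had an unadjusted p below 0.05. The 4 were ELOVL6 (mean -0.86, SE 0.15, adjusted p = 0.182), DHCR7 (mean 0.53, SE 0.15, adjusted p = 0.269), CYP51A1 (mean 0.50, SE 0.18, adjusted p = 0.324) and MSMO1 (mean 0.91, SE 0.34, adjusted p = 0.335). HMGCS1 (mean 1.05, SE 0.44, adjusted p = 0.366) and INSIG1 (mean 0.94, SE 0.42, adjusted p = 0.392) were above 0.8 on both arrays. For INSIG1 these arrays lay close together (0.96 and 0.92), and its SE also draws on the si-PIR arrays (0.28 and 1.995). After the mean of the 6 other arrays was subtracted, INSIG1 was at -0.06 (adjusted p = 0.961).

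The difference between si-PIR and miR-204-5p, which also differ in cell line, was tested in the same limma fit. Of 32 genes 0 were called (0% of all genes higher and 0% lower, of 19661), with 3 of 32 and 2244 of all genes at an unadjusted p below 0.05. ELOVL6 differed by 1.17 (SE 0.20, adjusted p = 0.311) on its brighter probe, with the si-PIR arrays at 0.39 and 0.23 and the miR-204-5p arrays at -0.70 and -1.01. Its other probe, which was near background, gave 0.42 and 0.49 against 0.75 and 0.01. FDFT1 differed by -1.29 (SE 0.41, adjusted p = 0.402) and TM7SF2 by -0.74 (SE 0.24, adjusted p = 0.414).

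Untransfected cells of the 5 lines differed in these genes before any RNA was added. The mock level is the log2 Cy3 signal minus the 75th percentile of its array, compared between lines within a probe and never between genes. With 1 or 2 arrays a line there is no test. Repeat arrays of a line differed by a median of 0.08 (PC3), 0.07 (SK-MES-1) and 0.05 (PANC1) over the 32 genes, and the labels do not say whether they carried the same mock RNA. The highest and lowest lines differed by more than 1 for 25 of 32 genes (78.1%), against 75% of 23223 genes.

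SW1990 had the highest mock level for 21 of 32 genes, with a median of 0.73 above the mean of the other 4 lines (all genes -0.01). There, 10 of 32 genes lay more than 1 above the other lines (13.4% of all genes) and 2 more than 1 below (16.3%). SK-MES-1 had the lowest level for 13 of 32 genes (median -0.37, all genes -0.11), with 1 above 1 (15.8%) and 7 below -1 (14.2%). How often SW1990 was highest and SK-MES-1 lowest over all genes was not counted, so the counts of 21 and 13 have no background. PANC1 had 0 above 1 (13.4%) and 6 below -1 (14.7%), of which 4 were fatty acid genes. PC3 had 1 above (12.9%) and 2 below (13.5%), and MDA-MB-231 had 2 above (12.3%) and 2 below (14.8%). After quantile normalization of the mock signals, SK-MES-1 had 5 such genes in either direction and MDA-MB-231 had 2.

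Mock levels of the 25 genes that differed by more than 1 between lines are given in the order PC3, SK-MES-1, PANC1, SW1990 and MDA-MB-231. In the mevalonate steps, FDFT1 had mock levels of 2.22, 3.096, 2.95, 5.09 and 2.99. MVD had levels of -0.31, -0.39, 1.11, 1.67 and 0.12, and IDI1 of 1.84, 1.67, 2.29, 3.57 and 2.88. SW1990 was highest for these 3 genes, by at least 0.57 over the next line. MVK had levels of 4.63, 2.99, 4.28, 4.12 and 4.94, and PMVK of 3.83, 3.296, 3.04, 2.08 and 3.32. They were lowest in different lines, MVK in SK-MES-1 and PMVK in SW1990. FDPS had levels of 5.57, 4.89, 5.22, 6.13 and 5.32, and HMGCS1 of 0.62, 1.19, 0.47, 1.03 and 0.11, a range of little more than 1.

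Of the genes from squalene to cholesterol, SQLE had mock levels of 4.09, 2.91, 3.604, 4.34 and 1.54, with MDA-MB-231 by far the lowest. TM7SF2 had levels of 1.23, -1.15, 0.86, 1.83 and -0.34, with SK-MES-1 and MDA-MB-231 low. EBP had levels of 6.08, 4.27, 5.21, 5.44 and 5.94, and CYP51A1 of 3.39, 2.21, 3.29, 3.84 and 2.89. Both were lowest in SK-MES-1. DHCR7 had levels of 4.95, 4.31, 5.01, 5.396 and 4.13, and MSMO1 of -0.83, -0.13, -0.64, 0.29 and -0.64. SC5D had levels of -2.25, -2.41, -2.24, -3.99 and -2.28, of which the SW1990 value is not well above background and is a bound.

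Among the regulators, STARD4 had mock levels of -0.40, -0.33, -2.07, 1.19 and 1.13, and INSIG2 of 1.02, 1.54, -0.41, 2.27 and 1.097. PANC1 was lowest for both and SW1990 highest. INSIG1 had levels of 1.604, 2.29, 2.34, 2.87 and 2.82, and SREBF1 of 4.43, 4.36, 5.52, 5.44 and 5.66. Their lines lay closer together, with PC3 lowest for INSIG1.

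The fatty acid genes held the widest differences. ELOVL6 had mock levels of -0.40, 2.52, -2.12, 2.23 and 2.79, a range of 4.91 between PANC1 and MDA-MB-231, with PC3 also low. FADS2 had levels of 5.42, 1.72, 4.14, 3.81 and 4.47, highest in PC3 and lowest in SK-MES-1. ACSS2 had levels of 2.24, 1.17, 0.34, 2.998 and 1.47, ACACA of 4.33, 4.19, 3.44, 5.57 and 4.36 and ACLY of 2.37, 2.34, 1.24, 2.72 and 2.84. These 3 genes, which make acetyl-CoA and malonyl-CoA, were lowest in PANC1. FADS1 had levels of 4.14, 3.37, 4.28, 4.996 and 4.43, and FASN of 3.87, 3.41, 3.89, 4.66 and 3.69, both highest in SW1990 and lowest in SK-MES-1. The 7 genes with a range below 1 were ACAT2, LSS, NSDHL, HSD17B7, SREBF2, SCAP and SCD. The 2 pancreatic lines, SW1990 and PANC1, did not lie together for STARD4, INSIG2, ELOVL6 or ACSS2.

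**Figure D5:**
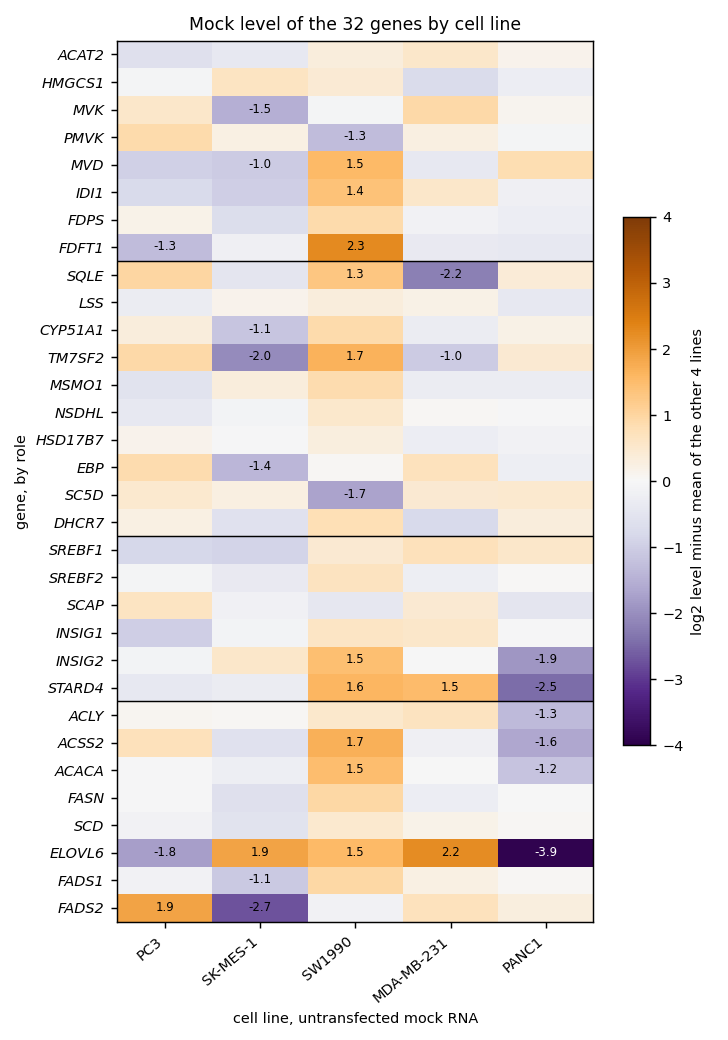
Mock level of each of the 32 genes (rows) in each cell line (columns) as the log2 difference from the mean of the other 4 lines, brown above and purple below, with the value written where it passes 1 in size. SW1990 has 10 written values above 0, PANC1 has 6 below 0, and the darkest cell is ELOVL6 in PANC1.

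Other genes of lipid metabolism were counted from 8 lists around the 32 genes. Over the 8 arrays together, 86 genes of these lists were tested. Of these, 1 was called lower (1.16%, against 0.627% of all genes) and 0 higher (against 1.35%). A count of 1 does not set the lists apart from all genes. The gene was MLXIPL, a carbohydrate-responsive transcription factor of lipid synthesis (mean -0.62, SE 0.099, limma adjusted p = 0.0164, below 0 on 8 of 8 arrays). In the other 3 tested comparisons 0 passed. Genes of SREBP processing and sterol sensing (10 of 10 measured on each array) had medians of 0.30 with si-PIR-3, 0.27 with miR-130-3p and -0.09 with si-PIR-2, with 0 past 1 on those arrays. Isoprenoid side branches (9 of 10 measured) had medians of 0.26, 0.05 and -0.18 on the same arrays, and sterol uptake, transport and esterification of 0.24, 0.23 and 0.003. With miR-130-5p, 4 of 10 genes of acyl-CoA synthetases and NADPH supply and 3 of 16 of other fatty acid elongation and desaturation lay below -1, against 6.19% of all genes. Triglyceride and phospholipid synthesis, fatty acid oxidation and LXR targets had medians between -0.29 and 0.33 on every array.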

How the data were processed

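Per the labels, Cy3 held mock RNA and Cy5 transfected RNA on each of 8 arrays, all on 1 slide. The authors deposited the scanner output of Agilent Feature Extraction 11.5.1.1 with spot intensity values and log10 ratios of Cy5 over Cy3 after background subtraction and dye normalization (linear and lowess). Their deposited value table equals these log10 values spot by spot (difference 0). From these, log2 ratios were computed. Spots marked as outliers were left out, spots of a probe were averaged, and the brightest probe stood for a gene. Of 38 probes of these genes with a RefSeq accession, 38 matched their symbol.

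Genes were tested in R 4.3.3 with limma 3.58.1 where the Cy3 or Cy5 signal of their probe was well above background on each array compared, with 1 coefficient per transfected RNA, or, over 8 arrays, with cell line as a random block (consensus correlation 0.141). In the fit by transfected RNA only si-PIR and miR-204-5p had more than 1 array, so their SEs pool the spread of both groups. Adjusted p-values are Benjamini-Hochberg over all genes tested, with a threshold of 0.05. Single arrays have counts past a log2 ratio of 1 and no test. On simulated data over 18660 genes, changes of 1 on the log2 scale were called for 14% (si-PIR), 13% (miR-204-5p) and 93% (8 arrays) of changed genes, and changes of 3 for 83%, 81% and 100%. In the measured data, the si-PIR fit called 0 of 22459 genes, although the mean of PIR was -4.86. The simulated errors were independent between arrays, without the correlation within cell lines. Each changed gene had the same change on every array compared, and every probe counted as well above background. The percentages therefore describe the simulated data and do not give the share of real changes called on the measured arrays.

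The members and lists were chosen with earlier results of these data known. The rule for printed values took ratios past 1 in size on any array or an adjusted p below 0.05, and mock levels for genes that differed by more than 1 between lines. Ratios of PMVK, CYP51A1, TM7SF2, SREBF1 and SREBF2 on every array were added after their values were seen. Probe coordinates are the array annotation's (hg19), without exon or UTR assignments. Promoter and miRNA sequences are RefSeq's on GRCh38.p14. The number of arrays limits the precision. Figures were drawn with matplotlib 3.10.9.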

Additional observations from a re-analysis of the deposited data

How the results depend on the processing

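The calls over 8 arrays rest on a value close to the threshold. Among the 32 genes, 1 passed in the analysis as reported (INSIG1). It became 2 (INSIG1, and SREBF1 as lower on its brighter probe) with normexp and loess and with no background correction and loess, and 0 with median centring, with no filter on dim probes, with a gene's probes averaged (INSIG1 adjusted p = 0.052) and with the mean of each cell line and no block (adjusted p = 0.0649). Leaving out each array gave 0 to 1 genes, and the count over all genes, 368 as reported, fell to 20 without miR-130-3p, 106 without miR-204-5p in SW1990, 111 without si-PIR-3, 122 without miR-204-5p in MDA-MB-231, 180 without miR-130-5p, 199 without si-PIR-2, 213 without miR-144-5p and 219 without miR-144-3p. It was 560 with no background correction and 67 with the mean of each cell line. For si-PIR, miR-204-5p and their difference, 0 of 32 genes were called under every alternative that was run, while with no background correction 5 (si-PIR, PIR among them) and 64 (miR-204-5p) of all genes were, and with both channels well above background 5 (miR-204-5p). Relative to the mean of the 6 other arrays, the miR-204-5p mean of INSIG1 turned to -0.056.

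The number of genes past 2-fold became 3 with si-PIR-3 and 0 with miR-204-5p in MDA-MB-231 under normexp and loess, and 1 in MDA-MB-231 with the mean over probes. At 1.5-fold it was 6 with si-PIR-2 (22.3% of all genes), 9 with si-PIR-3 (18.1%), 5 with miR-144-5p (17.7%), 1 with miR-144-3p (14.6%), 5 and 7 with miR-204-5p in SW1990 (17.3%) and MDA-MB-231 (15.7%), 11 with miR-130-5p (34.4%) and 21 with miR-130-3p (21.6%), out of 32 genes each. Mock levels past 2-fold fell from 8 to 5 genes in SK-MES-1 and from 4 to 2 in MDA-MB-231, both with quantile normalization and with Aquantile. The cause of these shifts was not tested. The mean mock of a cell line and the settings for the si-PIR and miR-204-5p arrays singly were chosen after seeing the data. Slide and scan as a block were not run, because all arrays lie on 1 slide. No paired analysis was possible because the labels give the groups no shared replicate numbers, and each array's ratio already sets transfected against mock RNA.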
